A study of Mus musculus with 12 samples.

Results

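Immediate early genes were followed in RNA-seq counts of mouse renal cortex. The set was a fixed list of 10 symbols: Fos, Fosb, Jun, Junb, Egr1, Ier2, Ier3, Nr4a1, Dusp1 and Btg2. The table held 46095 symbols, and 17530 genes, all 10 members among them, passed the filter on low counts and were tested. There were 12 libraries from C57BL/6 mice, labelled as 12 weeks old, in 3 groups of 4. The groups were normal control (NC), diabetic nephropathy (DN, the kidney disease of diabetes) and DN animals given sodium butyrate (DN+NaB), the salt of a short-chain fatty acid that inhibits histone deacetylases. The labels used here do not say how diabetes was induced, what the controls received, or the dose, route and duration of sodium butyrate. They name no batch or hour of collection, and tie no library to an animal. The p-values therefore reflect only how far these samples spread, part of which may be technical.

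Immediate early genes are transcribed within minutes of a stimulus, without new protein synthesis, because the factors that switch them on are already present and are activated by kinases. Serum response factor with its ETS partners, and the cyclic AMP response element binding protein, are the classical activators. Fos, FosB, Jun and JunB pair into the AP-1 transcription factor, Egr1 is a zinc finger factor and Nr4a1 an orphan nuclear receptor. Dusp1 is a phosphatase that switches MAP kinases off, Btg2 is an antiproliferative cofactor of mRNA deadenylation, and Ier2 and Ier3 are small proteins induced by growth factors and stress. The transcripts are short-lived, and in kidney they are known to rise after ischaemia and with growth factor or hormone signals.

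The promoters of 5 members are shown: Fos, Nr4a1, Dusp1, Btg2 and Ier3. Deviations from group means had Pearson's r with Fos of 0.79 for Nr4a1, 0.72 for Dusp1, 0.84 for Btg2 and -0.17 for Ier3. Nr4a1 and Dusp1 had r = 0.625 with each other. Fosb (0.885 with Fos), Junb (0.88) and Jun (0.62) are not shown. The 5 promoters were chosen after their values were seen, and a link between motifs and this pattern was not tested. Each is the stretch of 250 bases before the transcription start in RefSeq's GRCm38.p6 table, which had an entry for 8 of the 10 members, all but Egr1 and Ier2. The build used for the counts is not given in the sources used here, so these sequences were matched by symbol. In RefSeq's coordinates they are Fos chr12:85473640-85473889 on the plus strand, Nr4a1 chr15:101266596-101266845 on the plus strand, Dusp1 chr17:26508473-26508722 on the minus strand, Btg2 chr1:134079156-134079405 on the minus strand and Ier3 chr17:35821463-35821712 on the plus strand. Capitals mark TGACG on either strand (CGTCA when it lies on the other strand), the core of the cyclic AMP response element.
Fos: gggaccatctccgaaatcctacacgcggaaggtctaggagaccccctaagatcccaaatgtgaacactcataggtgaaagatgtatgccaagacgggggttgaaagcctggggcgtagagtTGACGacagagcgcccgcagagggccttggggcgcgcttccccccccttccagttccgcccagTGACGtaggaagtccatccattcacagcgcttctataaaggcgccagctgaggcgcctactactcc
Nr4a1: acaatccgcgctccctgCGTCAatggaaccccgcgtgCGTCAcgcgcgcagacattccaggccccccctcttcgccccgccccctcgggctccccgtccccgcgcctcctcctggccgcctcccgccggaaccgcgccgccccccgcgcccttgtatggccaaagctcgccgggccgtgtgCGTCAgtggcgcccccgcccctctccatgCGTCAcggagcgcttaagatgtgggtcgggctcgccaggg
Dusp1: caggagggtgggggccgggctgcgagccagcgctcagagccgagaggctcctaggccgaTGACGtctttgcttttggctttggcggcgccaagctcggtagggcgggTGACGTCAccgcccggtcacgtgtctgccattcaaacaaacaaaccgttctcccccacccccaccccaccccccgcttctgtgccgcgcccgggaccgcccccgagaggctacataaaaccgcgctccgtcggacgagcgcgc
Btg2: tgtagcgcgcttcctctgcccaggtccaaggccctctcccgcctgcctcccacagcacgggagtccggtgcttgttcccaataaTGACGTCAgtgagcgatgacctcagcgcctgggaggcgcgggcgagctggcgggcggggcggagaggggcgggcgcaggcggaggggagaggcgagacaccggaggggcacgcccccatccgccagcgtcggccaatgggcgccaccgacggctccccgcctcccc
Ier3: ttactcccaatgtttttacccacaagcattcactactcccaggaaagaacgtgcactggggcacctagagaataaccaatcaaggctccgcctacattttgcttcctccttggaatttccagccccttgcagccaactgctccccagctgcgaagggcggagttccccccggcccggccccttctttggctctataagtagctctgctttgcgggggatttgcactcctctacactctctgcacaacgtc

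The Fos promoter held TGACG at 129 and 66 bases before the start, and that of Nr4a1 held 4 copies. The full palindrome TGACGTCA, which contains TGACG on each strand, stood once in Dusp1 and once in Btg2. Over the 8 member promoters, TGACG was found in 6 (Fos, Fosb, Junb, Nr4a1, Dusp1 and Btg2), against 17.8% of the 32851 promoters of the same length in the table. Jun and Ier3 held none. TGACGTCA was found in 2 of 8 against 1.55%. The Egr site GCGNGGGCG, on either strand, was found in Fosb, Nr4a1 and Btg2 against 4.70%. The CArG box bound by serum response factor (1.47% of all promoters) and the AP-1 site TGANTCA (6.75%) were in 0 of the 8 windows, which says only that these letters do not stand there. A match is a description of sequence and not a measured site.

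Libraries held 58394975 to 70674015 counts. Levels are given in CPM, counts per 1000000 counts of the library after scaling by its TMM factor. The extraction text of the labels names prefrontal cortex while the tissue label reads renal cortex. The proximal tubule gene Lrp2 had 547305 to 852758 counts and the thick ascending limb gene Umod 165229 to 481314. Of 8 brain markers, 1, the neuronal gene Snap25, had 0 in every library. Among the rest Mbp had 942 to 1501 counts, Camk2a 34 to 69 and Gfap 2 to 41. Rbfox3 had 2 to 28, Gad1 1 to 21, Syt1 1 to 15 and Slc17a7 0 to 2. DN replicate 4 stood apart: 5 neutrophil markers together had 26.0 CPM there and between 1.12 and 5.46 elsewhere (3 of the 5 were at 0 in some library), and 5 erythroid markers 247 CPM against 4.18 to 134. Among DN libraries it was also highest in fibroblast markers (236 CPM, against 74.5, 86.2 and 90.1) and macrophage markers (241, against 128, 133 and 148). It was lowest in proximal tubule markers (18484 CPM, against 21812, 29730 and 29547). NC libraries had 157 to 215 CPM of the fibroblast and 190 to 271 of the macrophage markers. The part of these cells in the results was not tested. Fold changes of the members without this library are given below.

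None of the 10 members was called between any pair of groups, and their levels in the groups overlapped in all 30 member comparisons. A gene was called at an adjusted p under 0.05 by edgeR's quasi-likelihood test with Benjamini-Hochberg adjustment over all tested genes. Between DN and NC 0 of 10 members were called, where 8.23% of tested genes were (3.82% higher and 4.42% lower), and 0 of 10 had groups that did not overlap, against 13.3% of genes. Between DN+NaB and DN 0 of 10 were called, against 0.0228% of tested genes (0.0114% higher and 0.0114% lower), and the groups of 0 did not overlap, against 4.56%. Between DN+NaB and NC 0 of 10 were called, against 15.6% (6.62% higher and 8.94% lower), and the groups of 0 did not overlap, against 27.9%. At an unadjusted p under 0.05 the count was 1 in DN against NC, 0 in DN+NaB against DN and 1 in DN+NaB against NC, and the gene was Jun each time. The share of all tested genes at this unadjusted threshold is not given here, so such counts, here and below, have no background. DESeq2, run as an alternative, also called 0 members in each comparison, with 1, 0 and 1 at an unadjusted p under 0.05, again Jun. In a piece of cortex, fewer cells of a type and less RNA per cell cannot be told apart.

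The median log2 fold change of the 10 members was 0.10 in DN against NC (all tested genes 0.01), 0.14 in DN+NaB against DN (all genes -0.02) and 0.38 in DN+NaB against NC (all genes -0.01). In each comparison 7 members had a positive and 3 a negative fold change. The comparisons share libraries, so these counts are not independent of each other. The standard error of a member's log2 fold change had a median of 0.41 in each comparison, against 0.20 over all tested genes.

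**Figure D1:**
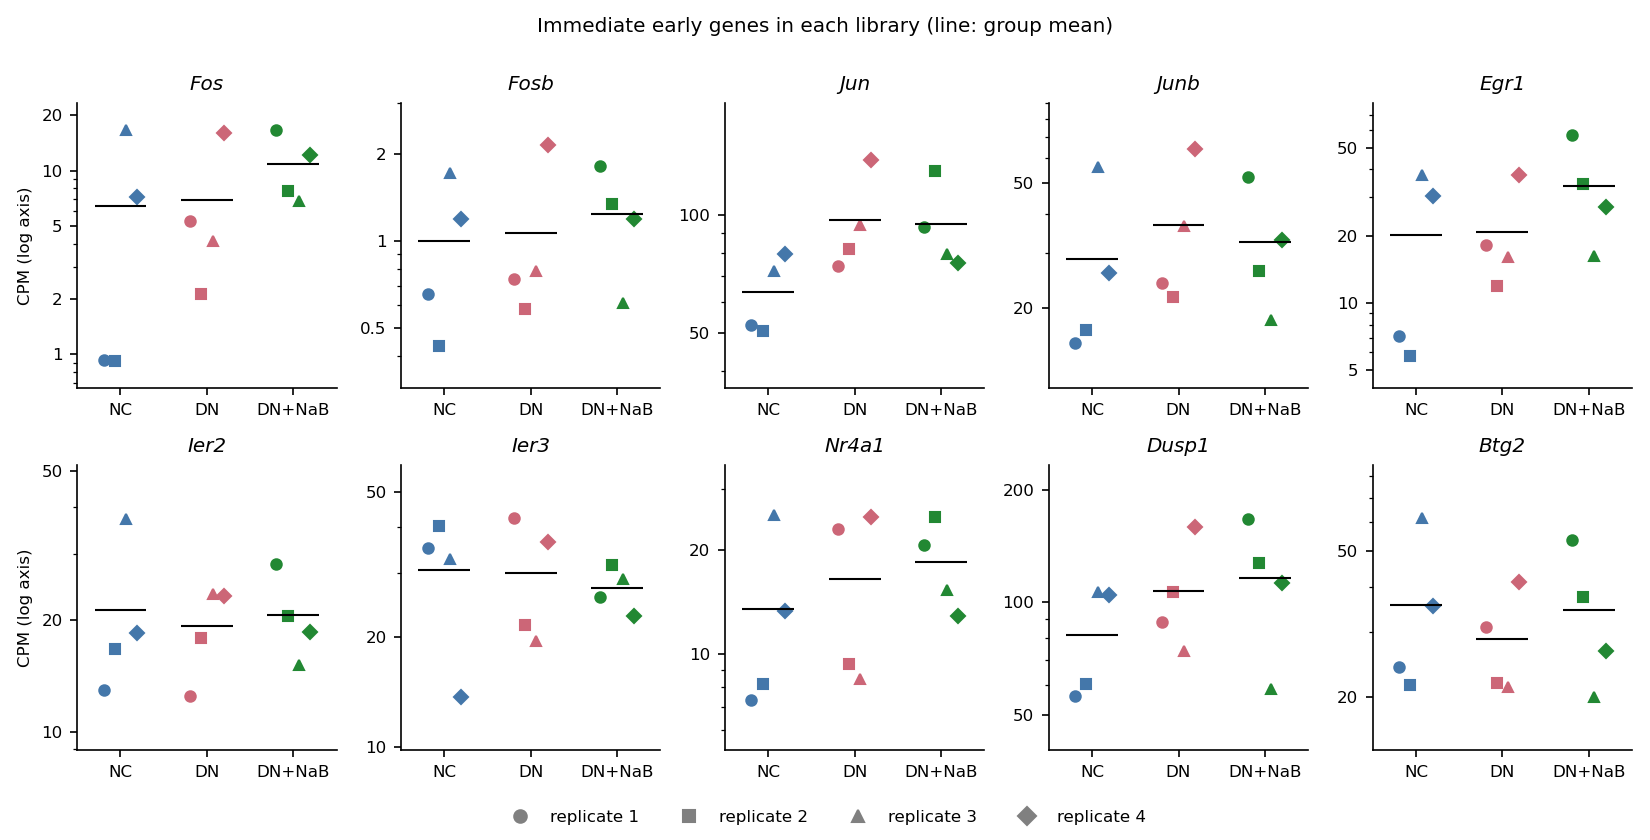
Level of each immediate early gene in every library, in CPM on a log axis, by group; symbols mark the replicate number and lines the group mean (n = 4 per group). NC replicates 1 and 2 lie low for most genes while NC replicate 3, DN replicate 4 and DN+NaB replicate 1 lie high, and the groups overlap in every panel.

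Fos, the AP-1 subunit that cannot pair with itself and needs a Jun partner, spread most. It stood at 0.934, 0.913, 16.6 and 7.16 CPM in the NC libraries, at 5.33, 2.13, 4.15 and 16.0 in the DN libraries, and at 16.7, 7.78, 6.80 and 12.1 in the DN+NaB libraries, here and below in order of replicate from 1 to 4. NC replicates 1 and 2 were below every other library, and the highest library of each group reached nearly the same level. The highest NC library was 18.2-fold above the lowest, against 7.54-fold in DN and 2.46-fold in DN+NaB. The NC mean was 6.40 ± 7.41 CPM, the DN mean 6.91 ± 6.23 and the DN+NaB mean 10.9 ± 4.54 (SD, n = 4 each). The log2 fold change of DN against NC was 0.11 ± 0.90 SE (adjusted p = 0.968 by edgeR), with a 95% interval from -1.89 to 2.11. That interval reaches from 0.270 to 4.31 times the NC level, so neither a large rise nor a large fall could be told from no change. DN+NaB differed from DN by 0.65 ± 0.90 (adjusted p = 0.834) and from NC by 0.76 ± 0.90 (adjusted p = 0.613). Without DN replicate 4 the difference of DN from NC was -0.75 (adjusted p = 0.669), and without NC replicate 3 it was 1.19, so 1 library decides its sign. DN+NaB differed from DN by 1.49 without DN replicate 4, and from NC by 1.83 without NC replicate 3, and neither passed the test.

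Fosb, a relative of Fos, was rare, with 28 to 133 counts per library. Its levels were 0.658, 0.433, 1.72 and 1.19 CPM in NC, 0.737, 0.581, 0.787 and 2.15 in DN, and 1.82, 1.34, 0.609 and 1.19 in DN+NaB. The same libraries were high as for Fos. DN differed from NC by 0.09 ± 0.50 on the log2 scale (adjusted p = 0.952 by edgeR), DN+NaB from DN by 0.22 ± 0.50 (0.900) and DN+NaB from NC by 0.31 ± 0.50 (0.717). The first of these was -0.53 and the second 0.82 without DN replicate 4, and without NC replicate 3 the first was 0.47 and the last 0.69.

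Jun, the AP-1 subunit that pairs with itself and with Fos proteins, came nearest to a difference between groups. It stood at 52.4, 50.6, 72.0 and 79.5 CPM in NC, at 74.1, 81.9, 94.5 and 138 in DN, and at 93.6, 130.0, 79.8 and 75.5 in DN+NaB. The groups overlapped through NC replicate 4, which lay above DN replicate 1 and DN+NaB replicate 4 and otherwise below the diseased libraries. The NC mean was 63.6 ± 14.4 CPM, the DN mean 97.2 ± 28.7 and the DN+NaB mean 94.7 ± 24.7 (SD, n = 4). DN differed from NC by 0.61 ± 0.22 (adjusted p = 0.120 by edgeR), with a 95% interval from 0.13 to 1.09, and DN+NaB from NC by 0.57 ± 0.22 (adjusted p = 0.101 by edgeR). Over all alternatives run, the adjusted p stayed between 0.0635 and 0.292 for the first and between 0.0521 and 0.294 for the second, so neither passed. Without DN replicate 4 the first was 0.37. DN+NaB and DN differed by -0.04 ± 0.22, with an interval from -0.52 to 0.44, and by 0.19 without DN replicate 4.

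Junb, a Jun relative that dampens Jun activity in some settings, followed Fos more than Jun. Its levels were 15.5, 17.0, 56.4 and 25.9 CPM in NC, 23.9, 21.6, 36.5 and 64.5 in DN, and 52.2, 26.2, 18.3 and 32.9 in DN+NaB. NC replicate 3, DN replicate 4 and DN+NaB replicate 1 stood highest, as they did for Fos. The differences were 0.35 ± 0.49 in DN against NC (adjusted p = 0.746 by edgeR), -0.18 ± 0.49 in DN+NaB against DN (0.922) and 0.17 ± 0.49 in DN+NaB against NC (0.845). The first was -0.10 and the second 0.25 without DN replicate 4, and without NC replicate 3 the first was 0.91 and the last 0.73.

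Egr1, the zinc finger factor, had the second widest spread. It stood at 7.09, 5.79, 37.9 and 30.3 CPM in NC, at 18.2, 11.9, 16.2 and 37.6 in DN, and at 56.9, 34.4, 16.4 and 26.9 in DN+NaB. NC fell into a low pair and a high pair of libraries, with the DN libraries between or level with the high pair. Means were 20.3 ± 16.3, 21.0 ± 11.4 and 33.7 ± 17.2 CPM (SD, n = 4). The differences were 0.05 ± 0.64 in DN against NC (adjusted p = 0.981 by edgeR), 0.68 ± 0.64 in DN+NaB against DN (0.755) and 0.73 ± 0.64 in DN+NaB against NC (0.482). With library size in place of TMM factors the first was -0.02, and without DN replicate 4 it was -0.42. Without that library DN+NaB differed from DN by 1.12, and without NC replicate 3 DN differed from NC by 0.53 and DN+NaB from NC by 1.21.

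Nr4a1, the orphan receptor also called Nur77, was at 7.35, 8.16, 25.2 and 13.3 CPM in NC, at 23.0, 9.34, 8.48 and 24.9 in DN, and at 20.6, 24.9, 15.3 and 12.9 in DN+NaB. In DN it split into a high pair, replicates 1 and 4, and a low pair, which Fos and Egr1 did not do. The differences were 0.28 ± 0.45 in DN against NC (adjusted p = 0.778 by edgeR), 0.16 ± 0.45 in DN+NaB against DN (0.922) and 0.45 ± 0.45 in DN+NaB against NC (0.540). Leaving out DN replicate 4 gave -0.0011 for the first and 0.43 for the second, and without NC replicate 3 the first was 0.77 and the last 0.93.

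Ier2 was at 12.9, 16.6, 37.1 and 18.3 CPM in NC, at 12.5, 17.9, 23.5 and 23.1 in DN, and at 28.2, 20.4, 15.1 and 18.5 in DN+NaB. NC replicate 3 was the highest of all 12 libraries. DN differed from NC by -0.14 ± 0.31 (adjusted p = 0.848 by edgeR, 95% interval -0.82 to 0.53), and by 0.26 without NC replicate 3. DN+NaB differed from DN by 0.10 ± 0.31 (0.936) and from NC by -0.05 ± 0.31 (0.937). Without DN replicate 4 Ier2 differed by -0.27 between DN and NC and by 0.20 between DN+NaB and DN, and without NC replicate 3 by 0.36 between DN+NaB and NC.

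Ier3, which restrains cell death, kept another order. It stood at 35.2, 40.3, 32.7 and 13.7 CPM in NC, at 42.3, 21.6, 19.5 and 36.5 in DN, and at 25.7, 31.5, 28.9 and 22.9 in DN+NaB. NC replicates 1 and 2, low for Fos and Egr1, were its highest NC libraries, and NC replicate 4 was the lowest of all 12. DN differed from NC by -0.02 ± 0.31 (adjusted p = 0.982 by edgeR), DN+NaB from DN by -0.14 ± 0.31 (0.900) and DN+NaB from NC by -0.16 ± 0.31 (0.770). Leaving out DN replicate 4 gave -0.14 for the first and -0.03 for the second. Within DN+NaB the highest library was only 1.37-fold above the lowest.

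Dusp1, the MAP kinase phosphatase that ends the signal, was at 56.1, 60.5, 106 and 105 CPM in NC, at 88.6, 107, 74.1 and 159 in DN, and at 167, 127, 58.7 and 112 in DN+NaB. The low pair of NC and DN+NaB replicate 3 lay together at the bottom. It differed by 0.39 ± 0.33 in DN against NC (adjusted p = 0.555 by edgeR), by 0.12 ± 0.33 in DN+NaB against DN (0.923) and by 0.51 ± 0.33 in DN+NaB against NC (0.336). Without DN replicate 4 the first was 0.12 and the second 0.37.

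Btg2, the antiproliferative cofactor, was at 24.1, 21.6, 61.4 and 35.4 CPM in NC, at 31.0, 21.8, 21.3 and 41.2 in DN, and at 53.5, 37.5, 19.96 and 26.7 in DN+NaB. It had the lowest fold change of the 10 in DN against NC, with -0.31 ± 0.37 (adjusted p = 0.707 by edgeR), and 0.09 without NC replicate 3. DN+NaB differed from DN by 0.26 ± 0.37 (0.840) and from NC by -0.05 ± 0.37 (0.946). With DN replicate 4 left out, Btg2 differed by -0.55 between DN and NC and by 0.47 between DN+NaB and DN, and without NC replicate 3 by 0.34 between DN+NaB and NC.

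**Figure D2:**
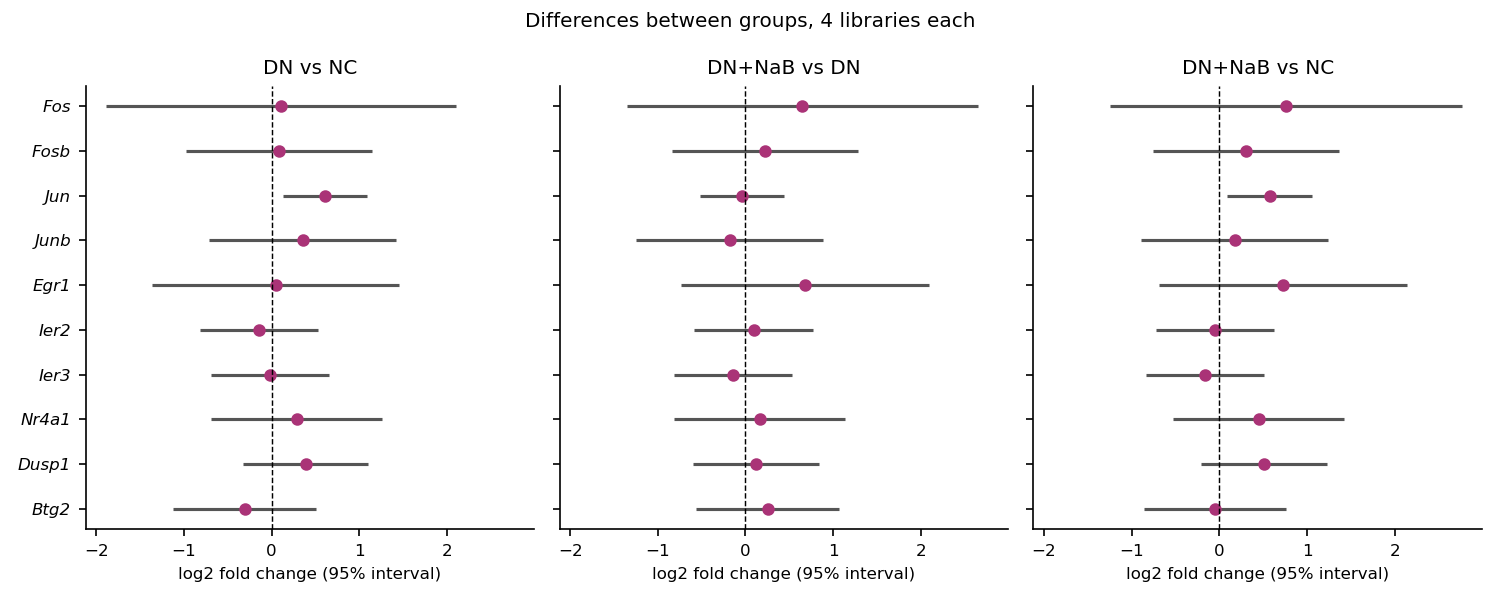
Log2 fold change of each immediate early gene in the 3 comparisons, with its 95% interval from the edgeR fit (4 libraries per group). The intervals span 0 for 9 of the 10 genes in DN vs NC and in DN+NaB vs NC, Jun being the exception, and for all 10 in DN+NaB vs DN; adjusted over all genes, no difference passed.

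Reads of some members cannot be assigned with certainty, since the treatment of strand in the counting is not given in the sources used here. In the GENCODE M21 annotation, exons of Jun overlap the antisense gene Junos, exons of Junb overlap Prdx2, and exons of Dusp1 overlap Ergic1, each on the opposite strand. Junos had 67 to 277 counts against 3269 to 8574 of Jun, and its deviations within groups had r = 0.47 with those of Jun. Prdx2, a peroxiredoxin gene, had 9672 to 18593 counts against 1011 to 3998 of Junb, with r = -0.14. Ergic1 had 5346 to 9852 counts against 3566 to 9840 of Dusp1, with r = -0.42. The other 7 members overlap no exon of another gene there.

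Most members spread widely between libraries of 1 group. Taken as the standard deviation of log2 CPM within groups, the spread of Fos was 1.43, wider than that of 99.1% of tested genes. Egr1 followed with 1.0 (95% of genes lower), Fosb with 0.77 (88.7%), Junb with 0.74 (87.3%) and Nr4a1 with 0.71 (86.0%). Jun was the steadiest with 0.36 (60.3%). The median over the 10 members was 0.65, against 0.29 over all tested genes. The counts of Fos ran from 59 to 1103 per library, a range far wider than counting error gives.

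The same libraries were high for most members. NC replicate 3 was the highest NC library for 8 of 10 members, the exceptions being Jun and Ier3. DN replicate 4 was the highest DN library for 8, all but Ier2 and Ier3. DN+NaB replicate 1 was the highest of its group for 7, all but Jun, Ier3 and Nr4a1, and DN+NaB replicate 3 was the lowest for the same 7. NC replicates 1 and 2 were the lowest NC library for 4 and 5 members. The median deviation of the 10 members from their group means was 0.93 on the log2 scale in NC replicate 3, 0.70 in DN replicate 4 and 0.63 in DN+NaB replicate 1. It was -0.54 and -0.55 in NC replicates 1 and 2, and -0.63 in DN+NaB replicate 3. So each group, NC included, held libraries high and low in these genes.

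**Figure D3:**
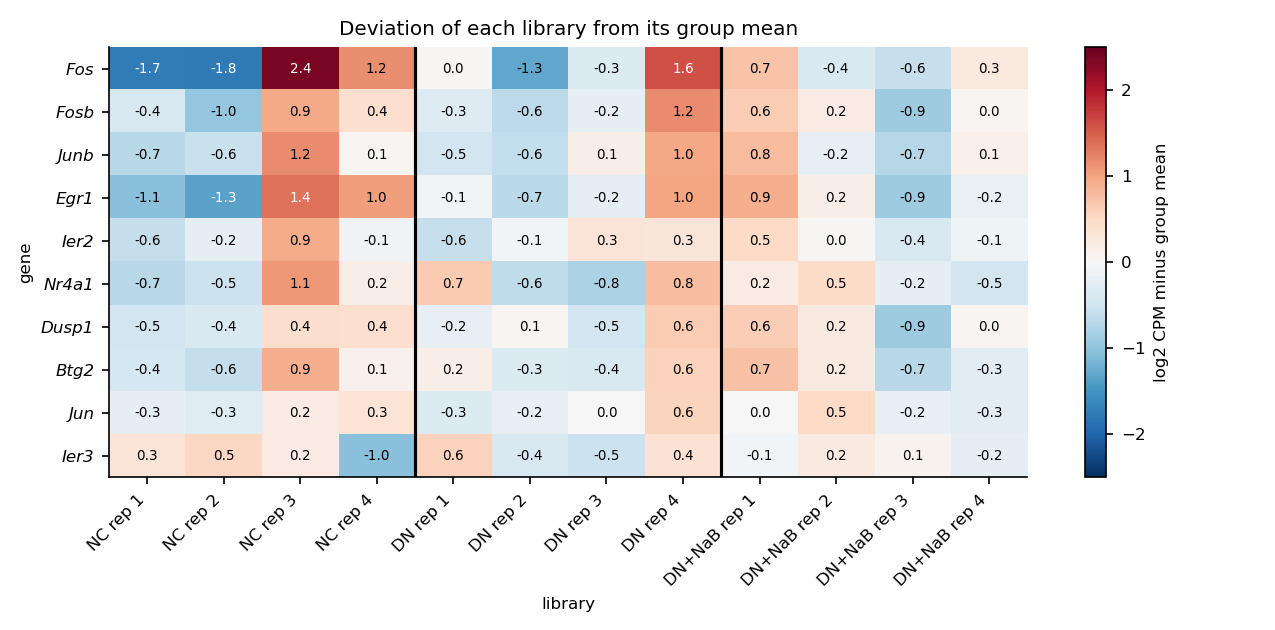
Deviation of each library from the mean of its group, in log2 CPM, for the 10 members (rows) in the 12 libraries (columns, groups separated by black lines). Red is above and blue below the group mean; NC replicate 3, DN replicate 4 and DN+NaB replicate 1 are red for most genes, and the row of Ier3 does not follow the others.

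Deviations from the group means were correlated between members over the 12 libraries. These values describe the libraries and carry no test: the points share 12 libraries and their scaling, and deviations sum to 0 within each group. Fos and Egr1 had Pearson's r = 0.95 and Spearman's rho = 0.94, and r = 0.92 without the 2 libraries where Fos lay farthest from its group mean. For Fos and Fosb r was 0.89 and rho 0.91, for Fos and Junb 0.88 and 0.85, and for Fos and Btg2 0.84 and 0.81. Fosb and Egr1 had r = 0.94, and Egr1 and Btg2 r = 0.91. Over all 45 pairs of the 10 members r ran from -0.25 to 0.95, with a median of 0.72. Among the 8 members other than Jun and Ier3, the 28 pairs had r from 0.45 (Ier2 and Nr4a1) to 0.95, with a median of 0.84; the 2 genes were set aside after their values were seen. The pair of Ier2 and Nr4a1 rests on few libraries, with r = 0.00041 without the 2 where Ier2 lay farthest from its group mean. Jun and Fos had r = 0.62, and Ier3 and Fos r = -0.17. Ier3 came nearest to Nr4a1, with r = 0.32.

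Few genes shared the pattern of Fos. Of 13540 genes with a mean over 1 CPM, 62 had r of 0.7 or more with Fos, Fos included (0.458%), and 7 of the 9 other members were among them; Jun and Ier3 were not. The median r over all these genes was -0.03. Predicted and clone-based symbols were left out of the next ranking. Outside the fixed gene lists, the 5 genes most like Fos were Nbas (r = 0.90, rho = 0.87), Usp54 (0.88, 0.87), Ankle2 (0.88, 0.87), Dcaf13 (0.88, 0.86) and Rasd1 (0.86, 0.91), each over 12 libraries. These 5 were picked for the highest r, and how high chance alone would reach was not tested. The first 3 hardly varied, with a within-group standard deviation of 0.06, 0.10 and 0.11 on the log2 scale. Rasd1, a Ras-like GTPase gene induced by glucocorticoids, varied by 0.86. It stood at 3.81, 3.22, 12.4 and 5.94 CPM in NC, at 11.4, 7.497, 12.1 and 27.7 in DN, and at 27.8, 11.6, 6.19 and 18.2 in DN+NaB, with the same high libraries as Fos.

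Other genes of the early response followed less closely. Of 52 other early response genes over 1 CPM, Arc, a neuronal early gene product found here at low level (r = 0.77), and Zfp36, which speeds the decay of cytokine mRNA (r = 0.74), reached 0.7 with Fos, and the median of the list was 0.36. Arc was at 24.8 CPM in DN replicate 4 and at 3.82 to 10.4 in the other libraries. The median r was 0.38 for 7 further AP-1, EGR and NR4A genes, 0.22 for 15 MAP kinase phosphatases and feedback inhibitors, and 0.07 for 30 upstream kinases and promoter-binding factors. In those 3 lists 0 genes reached 0.7.

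**Figure D4:**
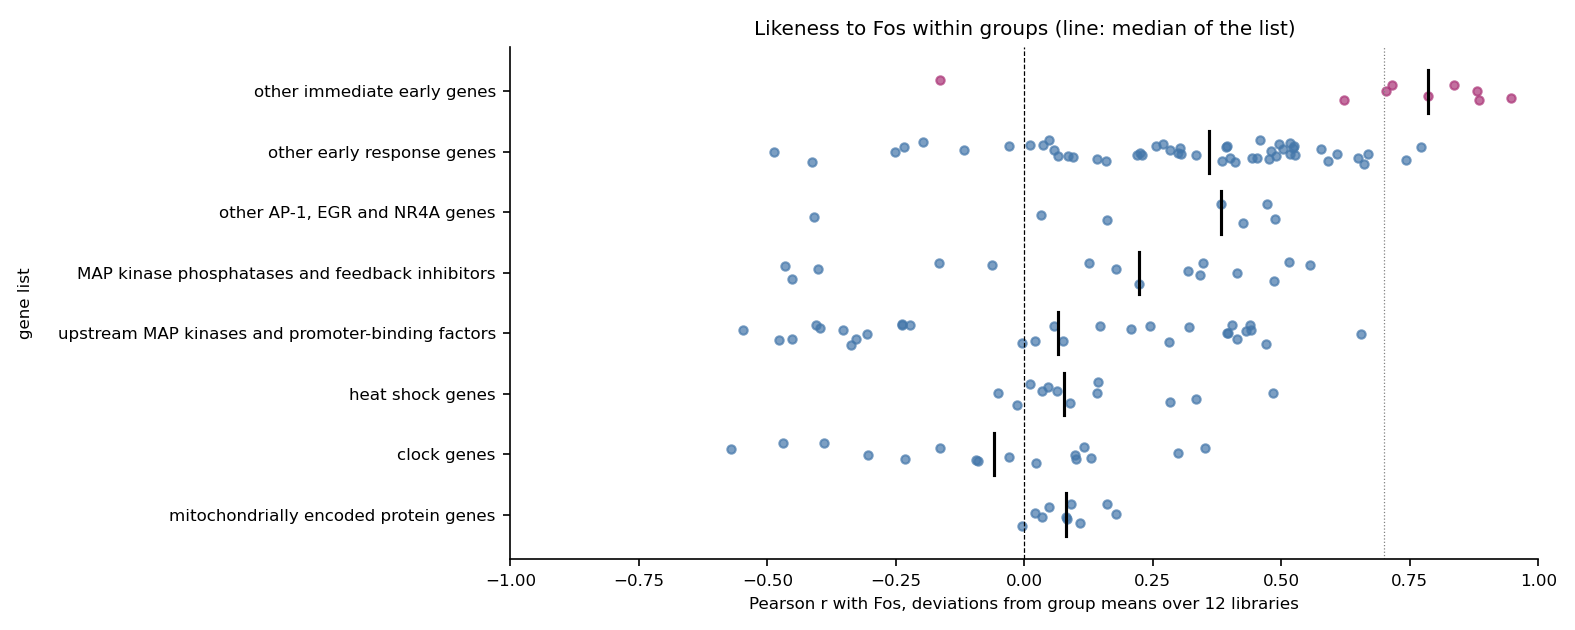
Pearson's r of each gene's deviations from its group means with those of Fos over 12 libraries, by gene list (genes with a mean over 1 CPM; vertical bars are list medians, the dotted line marks 0.7). The other immediate early genes have a median of 0.79, with Ier3 below 0; heat shock, clock and mitochondrially encoded genes centre near 0.

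Measures of the libraries were set beside this pattern. Heat shock genes, which rise with heat and protein damage, had a median r of 0.08 with Fos over 12 genes, clock genes -0.06 over 16, and mitochondrially encoded protein genes 0.08 over 10. The total count of the library had r = 0.09, its TMM factor r = 0.37 and the share of its counts in tested genes r = -0.47. That last share lay between 99.952% and 99.978% over all libraries, and the part of these measures in the pattern was not tested. The share of mitochondrially encoded counts had r = 0.11. That share was 1.04% in NC replicate 3, 2.60% in DN replicate 4 and 0.518% in DN+NaB replicate 1, the 3 libraries highest in Fos in their groups. Among summed cell type markers, r with Fos was -0.18 for proximal tubule, -0.34 for endothelium, 0.25 for macrophages, 0.36 for neutrophils and -0.02 for erythroid cells. The farthest from 0 were 3 negative values, with -0.63 for 3 markers of the distal convoluted tubule, -0.58 for 6 of mural and smooth muscle cells and -0.55 for 5 of podocytes. The distal tubule sum ran between 860 and 1438 CPM among NC libraries, between 1071 and 1609 among DN and between 1436 and 1749 among DN+NaB libraries. The mural sum ran between 408 and 621, 362 and 496, and 440.2 and 502 CPM in the same order, and the podocyte sum between 531 and 678, 530.4 and 717, and 667 and 809 CPM. Of the 14 markers in these 3 lists 0 had a library without counts, and their part in the pattern was not tested.

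Related genes were taken from 4 further lists, and their calls are to be read against the 8.23% of all tested genes called in DN against NC. In that comparison 0 of 14 other AP-1, EGR and NR4A genes were called by edgeR, with 3 at an unadjusted p under 0.05 (median log2 fold change 0.22). Fosl1, a Fos relative, had 0 counts in all 4 NC libraries. In 1 library taken alone a true level of up to 3 counts cannot be told from 0, and 4 libraries at 0 bound a shared level more tightly. Fosl1 had 11, 2, 2 and 63 counts in DN and 11, 13, 1 and 1 in DN+NaB (adjusted p = 0.0508 in DN against NC by edgeR). Fosl2 lay between 31.0 and 41.3 CPM among NC libraries, reached 100.3 with DN replicate 4 and lay between 46.6 and 48.1 in the other 3 DN libraries, a difference of 0.73 ± 0.22 (adjusted p = 0.0620 by edgeR).

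Of 53 tested other early response genes, 1 rose in DN against NC, 0 fell and 52 were not called, with a median of 0.28 and 14 at an unadjusted p under 0.05. The one was Maff, a small Maf transcription factor, with a mean of 2.93 ± 0.296 CPM for NC and 7.13 ± 4.61 for DN (SD, n = 4; log2 fold change 1.28 ± 0.33, adjusted p = 0.0295 by edgeR). Without DN replicate 4, where it reached 13.9 CPM, it differed by 0.71 (adjusted p = 0.0422 by edgeR), and without any 1 of the NC libraries it was not called (adjusted p up to 0.0909), nor with library size only (0.0561) or with only the 2 groups (0.0593). Of 16 feedback genes 2 rose and 14 were not called, with 3 at an unadjusted p under 0.05. Dusp14 went from 13.01 ± 2.31 to 20.9 ± 3.83 CPM (0.68 ± 0.17, adjusted p = 0.0219 by edgeR) and Dusp4, an inducible nuclear phosphatase of MAP kinases, from 17.4 ± 4.41 to 28.1 ± 6.89 (0.69 ± 0.19, adjusted p = 0.0363 by edgeR). The call of Dusp14 was lost without NC replicate 1 or 4 or DN replicate 1 or 3 (adjusted p up to 0.0578). That of Dusp4 was lost without NC replicate 1, 2 or 3 or DN replicate 2 or 4 (up to 0.133), and under 3 of 8 other settings, the highest adjusted p being 0.103 with library size only. Of 30 upstream kinases and promoter-binding factors 0 were called by edgeR, with 1 at an unadjusted p under 0.05.

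Between DN+NaB and DN, 0 genes of these 4 lists were called by edgeR, with 1 of 14, 14 of 53, 1 of 16 and 1 of 30 at an unadjusted p under 0.05, in the order above. Without the share of all tested genes at that unadjusted p, whether 14 of 53 stands out cannot be told. The smallest p belonged to Sik1, a salt-inducible kinase gene driven by cyclic AMP, at 219 ± 39.6 CPM in DN and 135 ± 19.6 in DN+NaB (-0.69 ± 0.14, adjusted p = 0.0827 by edgeR). Its groups overlapped, with DN replicate 4 at 161 CPM and DN+NaB replicate 2 at 162.

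Between DN+NaB and NC, 4 of 53 early response genes rose, 2 fell and 47 were not called (median 0.13), where 15.6% of all tested genes were called. Id2, an inhibitor of differentiation factors, rose by 0.51 ± 0.14, Phlda1 by 0.62 ± 0.18, the survival factor gene Mcl1 by 0.70 ± 0.22 and the polo-like kinase gene Plk3 by 0.97 ± 0.31 (adjusted p = 0.0201, 0.0274, 0.0478 and 0.0498 by edgeR). Sik1 fell by 0.44 ± 0.14 and Klf2, a factor induced by flow in endothelium, fell by 0.64 ± 0.20 (adjusted p = 0.0486 and 0.0412 by edgeR). All 6 calls depended on single libraries. That of Id2 was lost without NC replicate 1, 3 or 4 or DN+NaB replicate 2, 3 or 4, and that of Phlda1 without NC replicate 1, 3 or 4 or DN+NaB replicate 3 or 4. Klf2 lost it without NC replicate 1, 2 or 3 or DN+NaB replicate 2, 3 or 4. Mcl1 kept it in 3 of 12 cases (without DN replicate 3 or 4 or DN+NaB replicate 1), Sik1 in 4 (NC replicate 4, DN replicate 3 or 4 or DN+NaB replicate 2) and Plk3 in 1 (DN+NaB replicate 3). Of 8 other settings, the call was lost under 6 for Plk3 (adjusted p up to 0.113), under 5 for Mcl1 (up to 0.124), and under 1 each for Phlda1 (0.0603) and Sik1 (0.0501). Among feedback genes Dusp14 rose by 0.85 ± 0.17 (adjusted p = 0.00370 by edgeR), a call kept in 12 of 12 such cases, and Spred2, an inhibitor of the Ras pathway, rose by 0.27 ± 0.09 (adjusted p = 0.0492 by edgeR), kept in 2 of 12 (without DN replicate 3 or 4) and lost under 4 of 8 other settings (adjusted p up to 0.277). Rps6ka5, the kinase MSK1 that phosphorylates histone H3 at early genes, fell by 0.85 ± 0.21 (adjusted p = 0.0151 by edgeR) and was the 1 of 30 upstream genes called, in 12 of 12 cases. Other AP-1, EGR and NR4A genes gave 0 calls of 14 by edgeR, with 3 at an unadjusted p under 0.05.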

How the data were processed

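Counts per gene symbol of 12 renal cortex libraries were used as the authors deposited them: whole-number counts, not normalized, in 1 table with 1 column per library. The submitters' processing notes list HISAT2 2.0.4, an aligner. No counting program, strand setting, annotation or build is given in the sources used here. Column names matched the sample titles, from which groups were taken.

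Genes were filtered with filterByExpr and scaled with TMM, and all 12 libraries entered 1 quasi-likelihood fit with group as the only term (edgeR 4.0.16, R 4.3.3; robust; two-sided; Benjamini-Hochberg over all 17530 genes). The standard error is the size of the log2 fold change divided by the root of F. The fit was tested on simulated data. Log2 CPM used a prior count of 2. Alternatives were RLE factors, library size only, 2 other filters, DESeq2 1.42.0, fits of 2 groups, no robust estimation, a replicate block and each library left out. The members and lists were chosen with earlier results of these data known. Named were all members, the genes of each fixed list with the smallest p (up to 4 per comparison) or a call, those with the highest correlation, and the 5 genes outside the lists most like Fos. Predicted and clone-based symbols were not eligible for these 5. Arc, Zfp36 and the overlapping genes were named after their values were seen. For the clock, heat shock and mitochondrial lists, tested as checks, the calls were as follows. In DN against NC, Hspa5 and Hspb1 of 14 heat shock genes were called higher (kept in 6 and 3 of 12 fits with 1 library left out, both lost without DN replicate 4), and 0 of 16 clock and 0 of 12 mitochondrial genes were called by edgeR (5 and 4 at an unadjusted p under 0.05). In DN+NaB against DN 0 of each were called by edgeR (3, 13 and 0 at an unadjusted p under 0.05, for heat shock, clock and mitochondrial genes). In DN+NaB against NC, Dnajb1 was called higher (kept in 4 of 12), Npas2 and Nr1d1 higher, and Per2, Per3, Cry1, Nr1d2 and Tef lower, a further clock list result is not reported here, and 0 mitochondrial genes were called by edgeR (3 at an unadjusted p under 0.05). No pair of libraries agreed within sampling noise (lowest chi-square over its degrees of freedom, 25.0).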

Additional observations from a re-analysis of the deposited data

Results flagged for a closer look

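1 of 30 sets of 4 values (10 members in 3 groups) had a library apart from the rest by the gap between neighbouring values. Chance gives about 1 in 20 if values are normally distributed, which CPM on a linear scale need not be. The rule was not applied to log2 CPM. Fosb in DN replicate 4 was at 2.15 CPM, against 0.581 to 0.787 in the other DN libraries. The same library was the highest of DN for 8 of the 10 members.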

How the results depend on the processing

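The count of called members was 0 in each comparison under all 20 alternatives. Of 600 fold changes of members under alternatives, 48 turned sign, and 0 of all 600 passed the test. Most were with 1 library left out, where the log2 fold change ran as follows: in DN against NC, -0.75 to 1.19 for Fos, -0.53 to 0.47 for Fosb, -0.095 to 0.91 for Junb, -0.42 to 0.53 for Egr1, -0.33 to 0.26 for Ier2, -0.27 to 0.14 for Ier3, -0.0011 to 0.77 for Nr4a1 and -0.55 to 0.090 for Btg2; in DN+NaB against DN, -0.020 to 0.82 for Fosb, -0.23 to 0.19 for Jun, -0.51 to 0.25 for Junb, -0.096 to 0.22 for Ier2, -0.30 to 0.076 for Ier3, -0.052 to 0.43 for Nr4a1, -0.11 to 0.37 for Dusp1 and -0.039 to 0.47 for Btg2; in DN+NaB against NC, -0.15 to 0.73 for Junb, -0.24 to 0.36 for Ier2, -0.42 to 0.0041 for Ier3 and -0.34 to 0.34 for Btg2. Beside these, Egr1 was -0.017 in DN against NC with library size only. With the replicate block, Ier3 was 0.022 in DN against NC, Jun 0.0058 in DN+NaB against DN and Ier2 0.073 in DN+NaB against NC. Sizes also moved without a change of sign. Over the 8 settings that kept every library, Fos ran from 0.67 to 1.49 in DN+NaB against NC (0.76 in the main fit). It ran from 0.59 to 1.10 in DN+NaB against DN (main 0.65). Egr1 ran from 0.62 to 1.04 in DN+NaB against NC (main 0.73). Library size only moved the median of all genes in DN+NaB against NC from -0.01 to -0.12.

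Counts over all genes moved more. DN against NC gave 669 higher and 774 lower, with 1031 higher by DESeq2 and 409 to 921 higher with 1 library left out, the lowest without NC replicate 1 and 428 without NC replicate 3. DN+NaB against DN gave 2 higher and 2 lower; 8 and 14 with RLE factors, 8 and 18 with library size only, 9 and 18 with no filter, 7 and 10 with at least 1 CPM in 4 libraries, 84 and 173 by DESeq2, 0 and 0 with only these 2 groups, 4 higher with the replicate block, and 0 to 30 higher and 0 to 37 lower with 1 library left out, the most without DN replicate 3. DN+NaB against NC gave 1161 higher and 1568 lower, 1783 higher with only these 2 groups, and 1043 to 2146 lower with 1 library left out, the fewest without DN+NaB replicate 2. The cause was not tested. Replicate numbers pair the samples by number only: 6 of 12 same-numbered pairs had deviations correlated over 0.1 (range -0.25 to 0.27), and 5 of 12 libraries correlated best with their own number.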
